A study of Mus musculus with 12 samples.

Results

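The 10 genes described here encode 6 matrix metalloproteinases (MMPs) and the 4 tissue inhibitors of metalloproteinases (TIMPs). They were chosen by symbol from the deposited gene table, with their group values already known from earlier work on these data, and make up 10 of the 13957 symbols listed. The tissue was spinal cord from male mice that carried human ApoE4 and received a contusion at thoracic level 9 at 4 months of age, collected 14 days later. All 12 libraries came from injured ApoE4 mice. Segments from just above and just below the lesion were sequenced for each of 2 genotypes, synj1+/+ and synj1+/- (1 inactive allele of synaptojanin 1), which gave 4 groups of 3 libraries. By the animal numbers of the study, the segments above and below came from the same mice of a genotype, so the sites are not independent, and the labels do not say which libraries share a mouse. No uninjured cord and no ApoE3 cord was analysed here, so every value describes injured ApoE4 tissue.

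MMPs are zinc-dependent proteases that cut collagens, elastin, laminins and other parts of the extracellular matrix. Most are made as inactive precursors. Some are secreted and others are held in the cell membrane, and the TIMPs block their active site. In the injured cord, MMPs are known for opening the blood-spinal cord barrier early and for remodelling the scar later, and infiltrating macrophages, fibroblasts and glia are among their sources.

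The deposited table gives 1 value for each group and gene, in FPKM (fragments scaled to transcript length and library size) with 1 added. It combines the 3 libraries of the group. The levels below are FPKM with that 1 taken off, and the log2 ratio is FPKM plus 1 for synj1+/- divided by FPKM plus 1 for synj1+/+, which makes the ratio of a low gene smaller. There is no value for a single library, so no spread between mice, error or test could be computed from these values, and no difference given here has a replicate check. The authors' own test results stand in the same table and were not used. As a fixed size, a gene is called higher or lower when the ratio is at least 1.5-fold. Reads had been reduced to equal numbers within each site before alignment, and the table holds no counts.

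In this table the level of SYNJ1, the gene with the inactive allele, was higher in the groups labelled synj1+/- at both sites. The synj1+/+ libraries had 1904 FPKM and the synj1+/- libraries 2403 above the lesion, against 1846 and 2592 below. In all that follows, synj1+/- and synj1+/+ mean the groups labelled so, and each direction rests on those labels. The study also measured synj1 mRNA by RT-qPCR in cord just above the lesion, which is not analysed here, and SYNJ1 in this table does not show that labels were exchanged. APOE was listed at 766 and 548 FPKM above the lesion and at 476 and 563 below it. The mice carried human ApoE4 while reads were aligned to the mouse genome, so these values may not measure the human transcript. The tissue itself carried the markers of spinal cord, with GFAP of astrocytes at 12974 FPKM, MOBP of oligodendrocytes at 10915 and SNAP25 of neurons at 5238 in synj1+/+ cord above the lesion, while MBP, MAG and CNP were listed at neither site.

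The promoters of MMP12 and TIMP1 are shown because these were the members with the largest ratios, and that of TIMP2 because its groups were nearly equal. Of the 10 members, 7 had a promoter in the RefSeq table of build GRCm38.p6, with 8 promoters in all, since MMP12 has 2 annotated starts. Each sequence runs from 250 bases before to 50 bases after a start, read 5′ to 3′ on the gene's strand. Capitals mark exact matches on either strand to TGAGTCA or its reverse complement TGACTCA, the consensus site of AP-1 factors (Fos and Jun). They also mark AGGAAG or its reverse complement CTTCCT, a core of Ets factors. No match to one motif overlaps a match to the other.
MMP12, first start, chr9:7344147-7344446, plus strand: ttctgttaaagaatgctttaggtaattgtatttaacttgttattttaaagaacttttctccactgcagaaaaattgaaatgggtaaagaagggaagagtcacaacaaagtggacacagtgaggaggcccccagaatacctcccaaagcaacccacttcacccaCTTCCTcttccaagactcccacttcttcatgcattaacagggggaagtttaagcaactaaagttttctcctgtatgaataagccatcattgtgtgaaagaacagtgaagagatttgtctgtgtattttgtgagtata
MMP12, second start, chr9:7347124-7347423, plus strand: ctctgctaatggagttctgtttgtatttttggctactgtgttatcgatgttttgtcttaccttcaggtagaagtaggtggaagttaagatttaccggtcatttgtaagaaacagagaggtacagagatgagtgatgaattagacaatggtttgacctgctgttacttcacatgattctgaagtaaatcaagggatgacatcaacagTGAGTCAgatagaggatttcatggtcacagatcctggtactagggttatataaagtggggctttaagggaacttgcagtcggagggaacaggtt
TIMP1, chrX:20869916-20870215, plus strand: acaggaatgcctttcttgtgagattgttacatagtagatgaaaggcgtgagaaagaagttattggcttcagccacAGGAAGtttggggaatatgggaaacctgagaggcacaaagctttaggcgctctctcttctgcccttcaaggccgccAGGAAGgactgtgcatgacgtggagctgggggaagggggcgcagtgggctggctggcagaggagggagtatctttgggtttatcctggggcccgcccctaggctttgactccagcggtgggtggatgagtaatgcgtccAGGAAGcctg
TIMP2, chr11:118355362-118355661, minus strand: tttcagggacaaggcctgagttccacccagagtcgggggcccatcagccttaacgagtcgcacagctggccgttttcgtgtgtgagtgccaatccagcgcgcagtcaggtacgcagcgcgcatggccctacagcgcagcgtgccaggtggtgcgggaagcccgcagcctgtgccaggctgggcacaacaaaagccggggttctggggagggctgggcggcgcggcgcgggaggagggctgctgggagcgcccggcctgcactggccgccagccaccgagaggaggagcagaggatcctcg

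The AP-1 letters occur once among the 8 promoters, 44 bases before the second start of MMP12, and 5.2% of all 32851 promoters in the table hold them. The Ets letters occur 3 times in the TIMP1 promoter and once each in the first MMP12 promoter and those of MMP14, TIMP3 and TIMP4. They are in 35.4% of all promoters. The windows of TIMP2 and MMP15 hold neither set of letters. Only these exact letters were searched, so variants of a site, such as tgagtaa in the TIMP1 window, were neither marked nor counted. A window without a match can still hold such a variant. The matches describe the sequence and do not show that a factor binds there.

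MMP12, the macrophage elastase, differed in opposite directions at the 2 sites. Rostral to the lesion, MMP12 was at 21.7 FPKM in synj1+/+ and 45.0 in synj1+/- cord. Below the lesion it was at 63.0 in synj1+/+ and 21.3 in synj1+/- cord. The highest level was thus below the lesion in synj1+/+ mice, the next above the lesion in synj1+/- mice, and the other 2 groups were close to each other, with the limit that the sites were normalised separately. The log2 ratio was 1.02 above and -1.52 below. MMP12 ranked 15 from the highest of 13647 ratios above the lesion and 54 from the lowest of 12338 below it. The ratio below minus that above was -2.54, rank 5 from the lowest among the 12025 genes listed at both sites, where the median difference was 0.02. At least 1.5-fold higher above together with at least 1.5-fold lower below was met by 8 of these 12025 genes, or 0.0665%, and MMP12 was the 1 member among them. MMP12 lies on chromosome 9 from 7344381 to 7369499 (GRCm38, GENCODE M21), and 157 of its 7237 annotated exon bases overlap exons of MMP1B on the opposite strand, a gene listed at neither site.

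**Figure D1:**
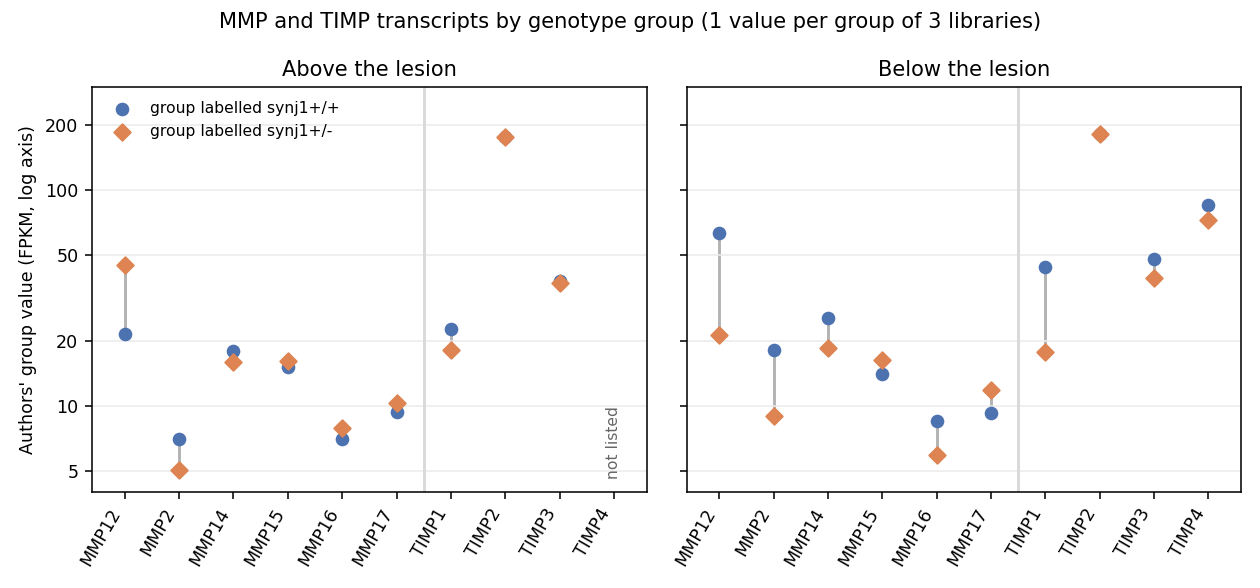
Levels of the 6 MMPs and 4 TIMPs above (left) and below (right) the lesion, in FPKM on a log axis; circles are the group labelled synj1+/+, diamonds the group labelled synj1+/-, each 1 value that combines 3 libraries, so there are no error bars. MMP12 goes from 21.7 to 45.0 above and from 63.0 to 21.3 below, TIMP2 stays between 177 and 183 with its circles hidden behind the diamonds, and TIMP4 was not listed above.

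MMP2, or gelatinase A, is a secreted protease that degrades gelatin and type IV collagen. Its FPKM above the lesion was 7.03 in synj1+/+ and 5.03 in synj1+/- cord, and below the lesion it was 18.2 and 9.01. The synj1+/- value was the lower at both sites. MMP2 lies on chromosome 8 from 92827291 to 92853420. The log2 ratio was -0.41 above, short of 1.5-fold, and -0.94 below, rank 190 from the lowest of 12338 genes.

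MMP14, a membrane-bound collagenase that together with TIMP2 activates the MMP2 precursor at the cell surface, had smaller ratios. Its FPKM was 17.9 in synj1+/+ and 16.0 in synj1+/- cord above the lesion, against 25.5 and 18.7 on the caudal side. The log2 ratio was -0.16 above and -0.43 below. MMP16, another transmembrane member, was at 7.06 and 7.90 FPKM above and at 8.49 and 5.95 below, with log2 ratios of 0.14 and -0.45. The values of MMP14 and MMP16 below were the nearest to the 1.5-fold limit among those that did not reach it.

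The remaining membrane-bound members had slightly higher values in synj1+/- cord at both sites. MMP15, a transmembrane protease, was at 15.2 and 16.1 FPKM above the lesion and at 14.1 and 16.3 below. MMP17, which is held in the membrane by a lipid anchor, was at 9.42 and 10.3 FPKM above and at 9.27 and 11.9 below. None of these log2 ratios, from 0.08 for MMP15 above to 0.33 for MMP17 below, reached 1.5-fold.

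TIMP1, the inducible inhibitor that is known to rise in injured nervous tissue, had the largest ratio among the inhibitors. Its FPKM above the lesion was 22.7 in synj1+/+ and 18.1 in synj1+/- cord, and below the lesion it was 44.2 and 17.7. TIMP1 lies on chromosome X from 20870166 to 20874735. The synj1+/+ group below the lesion stood apart from the other 3, which lay between 17.7 and 22.7. The log2 ratio was -0.31 above and -1.27 below, the latter rank 87 from the lowest of 12338 genes.

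TIMP2, which both inhibits MMPs and takes part in MMP2 activation, was the most abundant of the members listed in each of the 4 groups, which were 9 above the lesion, where TIMP4 has no value, and 10 below it. Its FPKM was 176.8 in synj1+/+ and 176.7 in synj1+/- cord above the lesion, and 183 and 182 below it. Both log2 ratios were within 0.01 of 0. TIMP3, an inhibitor that binds to the matrix and also acts on ADAM proteases, was at 37.97 and 37.0 FPKM above and at 47.8 and 39.2 below, with log2 ratios of -0.03 and -0.28. TIMP4 was listed below the lesion only, at 85.4 FPKM in synj1+/+ and 72.4 in synj1+/- cord, with a log2 ratio of -0.24.

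In order of level, TIMP2 was followed above the lesion by TIMP3, TIMP1 and MMP12 in synj1+/+ cord and by MMP12, TIMP3 and TIMP1 in synj1+/- cord. MMP2 was the lowest member in both groups there. Below the lesion the order after TIMP2 was TIMP4, MMP12, TIMP3 and TIMP1 in synj1+/+ cord and TIMP4, TIMP3, MMP12 and MMP14 in synj1+/- cord, and MMP16 was the lowest in both. Neighbours in this order cannot be separated, since no spread is available. The 6 MMPs summed to 78.3 FPKM in synj1+/+ and 100.3 in synj1+/- cord above the lesion, with MMP12 giving 27.7% and 44.9% of the sum, and to 139 and 83.2 FPKM below it, with MMP12 giving 45.5% and 25.7%. TIMP1, TIMP2 and TIMP3 together summed to 237 and 232 FPKM above and to 275 and 239 below. The ratio of the 2 sums was 3.03 in synj1+/+ and 2.31 in synj1+/- cord above the lesion, and 1.98 and 2.87 below. These are sums of transcript levels and say nothing of enzyme activity.

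Above the lesion, 1 of the 9 members listed was called higher (MMP12) and 0 were called lower, where 0.791% of all 13647 genes were called higher and 1.94% lower. Below the lesion, 0 of 10 members were called higher and 3 were called lower (MMP12, TIMP1 and MMP2), where 1.16% of all 12338 genes were called higher and 4.38% lower. The median log2 ratio above was 0.10 for the 6 MMPs and -0.03 for the 3 TIMPs listed, beside 0.00 for all genes. Below it was -0.44 for the MMPs and -0.26 for the 4 TIMPs, beside 0.01 for all genes. At a smaller limit, a log2 ratio of 0.32 in either direction, MMP12 was higher and MMP2 lower above the lesion (4.18% and 7.45% of all genes), and below it MMP17 was higher and MMP12, TIMP1, MMP2, MMP16 and MMP14 were lower (8.06% and 11.5%). At 2-fold, MMP12 above (0.132% of all genes higher, 0.564% lower) and MMP12 and TIMP1 below (0.162% higher, 1.3% lower) were past the limit. The members were chosen with these values known, so the counts are a description and support nothing further.

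**Figure D2:**
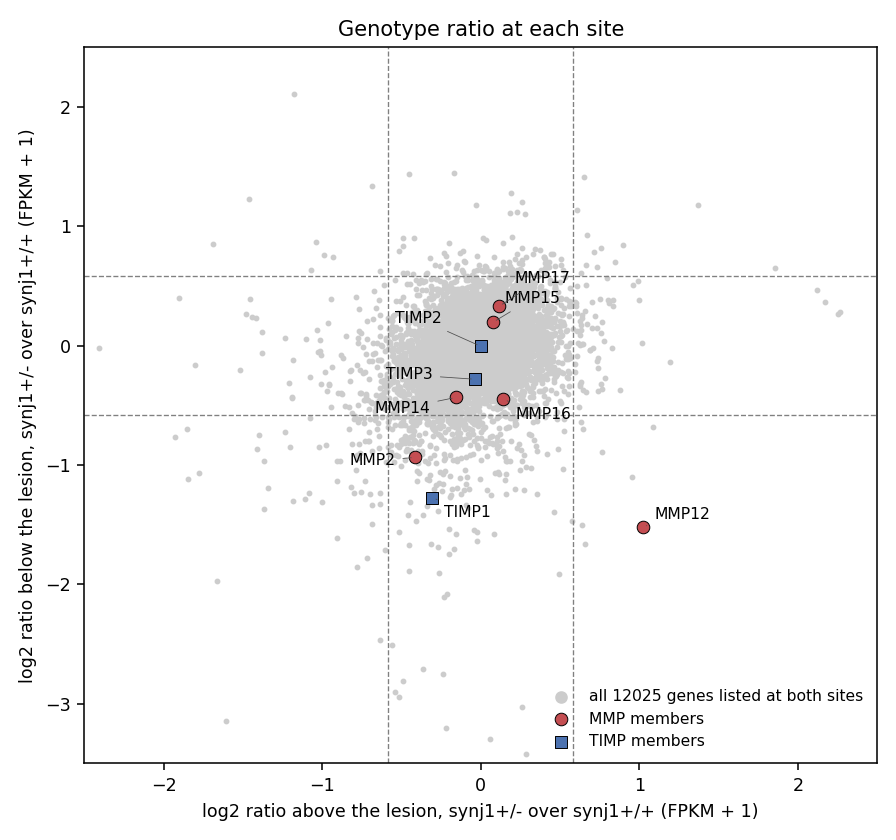
Log2 ratio of FPKM plus 1, synj1+/- over synj1+/+, above the lesion (x axis) and below it (y axis), for the 12025 genes listed at both sites (grey), with the 9 members listed at both marked (circles, MMPs; squares, TIMPs); dashed lines mark 1.5-fold, and 5 grey genes lie outside the range shown. MMP12 lies at 1.02 and -1.52, apart from the other members, and TIMP1 and MMP2 lie low on the y axis.

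The 2 sites were reduced in reads and normalised separately, so levels set across them are less firm than ratios within a site. In synj1+/+ cord, the FPKM below over that above was 2.91 for MMP12, 2.58 for MMP2, 1.95 for TIMP1 and 1.42 for MMP14. In synj1+/- cord the same ratios were 0.474, 1.79, 0.975 and 1.17. For TIMP2 they were 1.03 in both genotypes.

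The TIMP genes have an arrangement that bears on their counts. TIMP1 lies inside SYN1 on chromosome X, TIMP3 inside SYN3 on chromosome 10 and TIMP4 inside SYN2 on chromosome 6, each on the opposite strand from its synapsin, a neuronal synaptic vesicle gene. Of the annotated exon bases, 0 of 888 in TIMP1, 1733 of 8144 in TIMP3 and 90 of 5894 in TIMP4 overlap exons of the synapsin. The library kit does not mark strand, so reads from overlapping stretches, unspliced synapsin RNA included, cannot be told from TIMP reads. SYN1 was listed above the lesion only, at 165 and 170 FPKM, and SYN2 below only, at 193 and 245, so SYN2 and TIMP4 were both unlisted above. SYN3 was at 287 and 267 FPKM above and at 371 and 284 below. SYN3 and TIMP3 thus both had lower values in synj1+/- cord below the lesion, with log2 ratios of -0.38 and -0.28, and the part of shared reads in this was not tested.

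**Figure D3:**
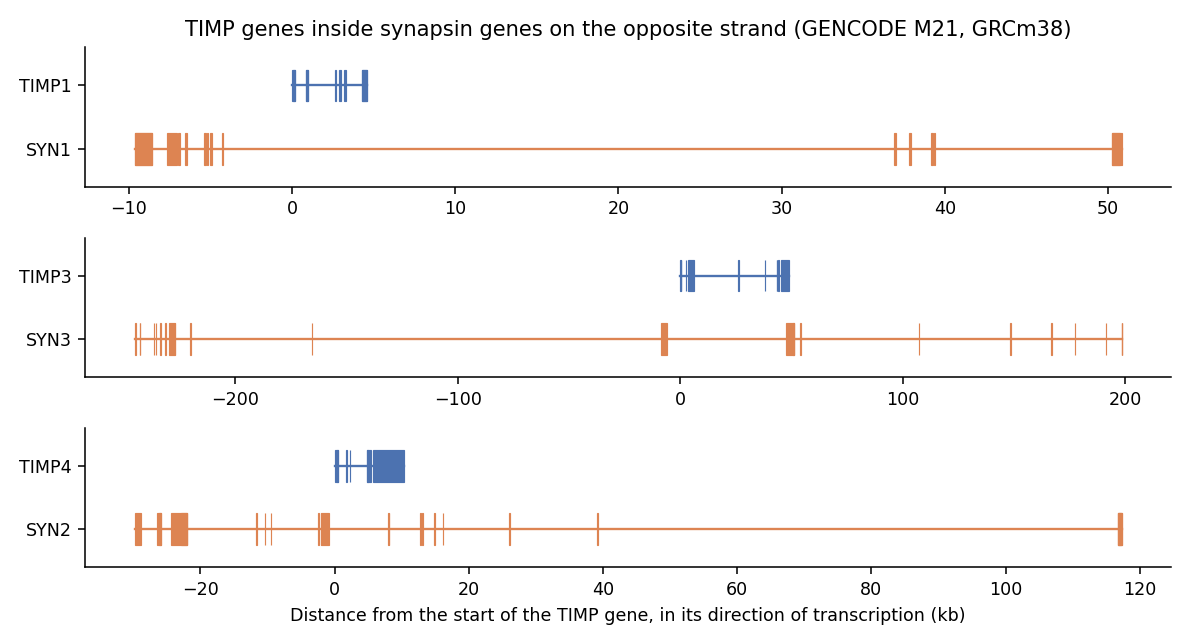
Exons (boxes) and spans (lines) of TIMP1, TIMP3 and TIMP4 and of the synapsin gene around each, drawn to scale by distance in kb from the TIMP start in the direction of TIMP transcription; the synapsins run the opposite way. Each TIMP lies wholly within a synapsin gene, and no TIMP1 exon meets a SYN1 exon.

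Of 17 further MMP genes, 6 were listed above the lesion and 8 below. Above, MMP23, a membrane-linked member, was the 1 called lower, from 12.6 to 6.96 FPKM, and 0 were called higher. Below, MMP3, MMP13, MMP23 and MMP19 were called lower and 0 higher. MMP3 (stromelysin 1) was at 5.02 FPKM in synj1+/+ and 0.374 in synj1+/- cord, and MMP13 (collagenase 3) at 2.49 and 0.221. Both are low values. MMP3, MMP13 and MMP12 lie in the same cluster of MMP genes on chromosome 9, and MMP3 and MMP13 were unlisted above the lesion. MMP9, or gelatinase B, was at 4.11 and 5.14 FPKM above and at 11.7 and 8.73 below, which is the same order of directions as MMP12 at log2 ratios of 0.26 and -0.39 that did not reach 1.5-fold. The median log2 ratio of this list was -0.14 above and -0.50 below.

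Plasmin activates several MMP precursors, and 10 of 11 plasminogen system genes were listed at each site. Above the lesion 0 were called higher and 2 lower, among them SERPINF2 (the plasmin inhibitor), at 1.34 FPKM in synj1+/+ and 0.545 in synj1+/- cord. Below the lesion 0 were called higher and 5 lower. PLAUR, the urokinase receptor, was at 15.3 FPKM in synj1+/+ and 5.88 in synj1+/- cord, and SERPINF2 at 2.01 and 0.525. ANXA2, a plasminogen receptor subunit, was at 57.2 and 33.8, and PLAU, the urokinase, at 20.4 and 12.8. The remaining one was S100A10, the partner of ANXA2. The median log2 ratio was -0.18 above and -0.57 below.

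Among 14 further regulators of MMPs, 12 were listed above and 11 below. THBS1 (thrombospondin 1), a matrix protein that binds MMPs, was the 1 called lower above, from 6.17 to 3.18 FPKM, and TFPI2, a serine protease inhibitor of the matrix, the 1 called lower below, from 7.84 to 1.62 FPKM. RECK, a membrane inhibitor of MMPs, was at 4.82 and 5.46 FPKM above and at 5.60 and 5.90 below. BSG (basigin, an inducer of MMPs) was at 693 and 648 FPKM below, and LRP1, a receptor that clears MMPs and TIMPs, at 151 and 125. The median log2 ratio was -0.10 above and -0.27 below. Of 10 ADAM genes, 0 of 9 listed above passed the limit and 2 of 8 listed below were lower, ADAM8 from 62.1 to 31.3 FPKM and ADAM12 from 2.26 to 0.836, with list medians of -0.08 and -0.14.

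The matrix proteins that MMPs cut were listed for 26 of 26 genes above the lesion and 23 below. Above, 0 were called higher and 3 lower (COL3A1, LAMA2 and LAMB1), with a median log2 ratio of -0.20. Below, 0 were called higher and 16 lower, with a median of -0.86. The largest ratios below were those of COL3A1 (68.9 to 6.91 FPKM), COL1A1 (46.2 to 5.29), DCN (138 to 18.8) and COL1A2 (74.7 to 10.6). ELN, the elastin that MMP12 is named for cutting, was at 9.52 and 8.17 FPKM above and at 33.6 and 10.9 below. COL4A1, a basement membrane collagen that MMP2 cuts, was at 15.1 and 11.8 above and at 40.2 and 15.3 below. The brain proteoglycans ACAN, VCAN and NCAN did not pass the limit at either site.

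**Figure D4:**
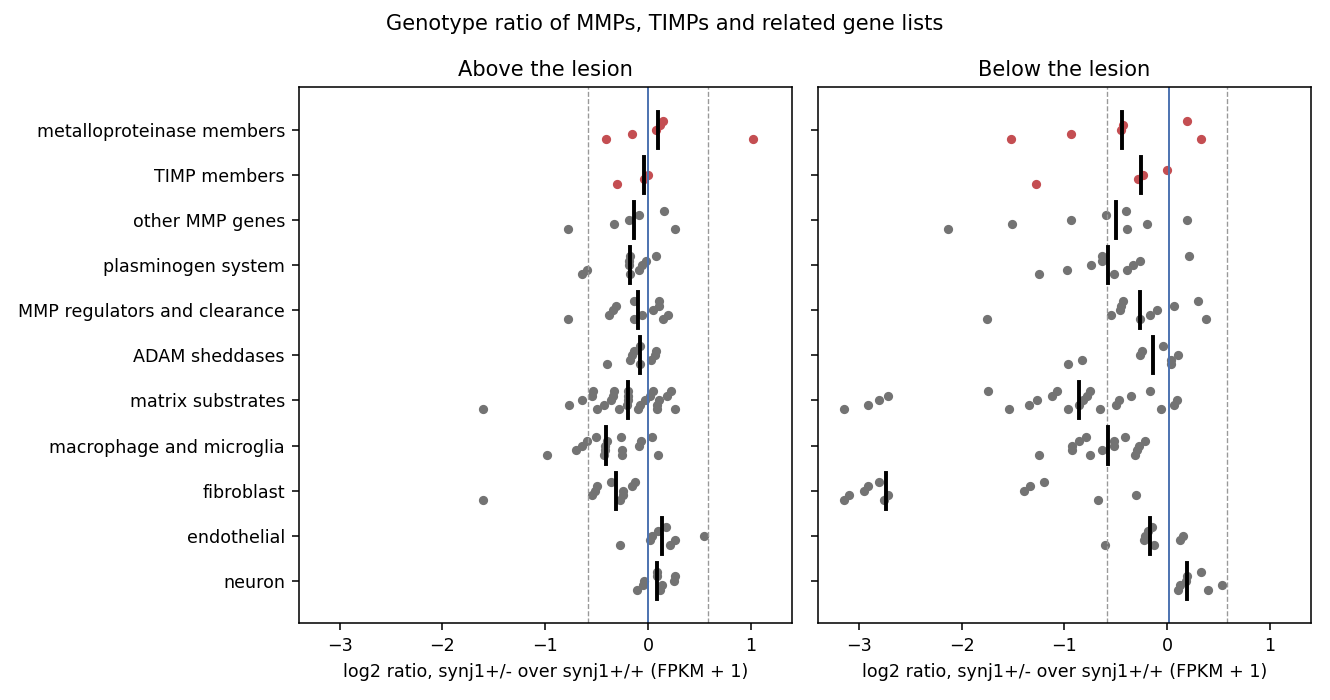
Log2 ratio of FPKM plus 1, synj1+/- over synj1+/+, for each listed gene (points) of the MMPs, the TIMPs, 5 related lists and 4 cell type marker lists, above (left) and below (right) the lesion; black bars are list medians, the blue line is the median of all genes and dashed lines mark 1.5-fold. Below the lesion the fibroblast markers have a median of -2.73 and the matrix substrates one of -0.86.

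Of 18 macrophage and microglia markers, 16 were listed above the lesion, of which 0 were called higher and 4 lower (ADGRE1, LYZ2, TREM2 and TYROBP), and their FPKM summed to 2826 in synj1+/+ and 2174 in synj1+/- cord. The median log2 ratio of the list was -0.41, and 2 of the 16 had higher values in synj1+/- cord, AIF1 (17.2 and 17.7 FPKM) and ITGAX (11.5 and 12.3 FPKM). Below the lesion 14 were listed, of which 0 were higher and 7 lower, with sums of 4195 and 2383 FPKM and a median of -0.58. SPP1 was the most abundant marker at both sites, CD163 was listed at neither and MRC1 below only. Of 12 fibroblast markers, 1 of 10 listed was lower above the lesion and 11 of 12 below, where their FPKM summed to 669 in synj1+/+ and 173 in synj1+/- cord and DCN was the most abundant in synj1+/+ cord. The fibroblast list shares COL1A1, COL1A2, COL3A1 and DCN with the matrix list. TIMP1, MMP2 and MMP12 were lower below the lesion together with both marker lists, and the part of cell makeup in their ratios was not tested. In bulk tissue, fewer cells of a type and less RNA per cell cannot be told apart.

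Likeness of pattern was measured over the 4 group values, as the Euclidean distance between log2 values of FPKM plus 1 after taking off the mean of each gene, among the 12025 genes listed at both sites. The 5 genes nearest to MMP12 were BC028528, RPS28, CD36, EMP3 and RBM47, at distances from 0.29 to 0.55. CD36, a scavenger receptor of macrophages and endothelium, was at 47.0 and 65.3 FPKM above the lesion and at 95.4 and 35.7 below it. RPS28 and EMP3 were under 6 FPKM in all 4 groups. Near to TIMP1 were COL12A1, EMP1, NID1 and PDGFRL, from 0.08 to 0.15. Nearest to MMP2 were CP, TGFBI, C1RA, COLEC12 and IGFBP7, from 0.11 to 0.22. Nearest to MMP14 were EFEMP2, UTP14A, MFGE8, IQGAP1 and CD93, each at 0.04. The distances rest on 4 values that are themselves group summaries, so they are a description only. How many further genes lie nearly as close to each member was not counted.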

How the data were processed

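RNA-seq was run by the authors on cord segments above and below the contusion, 3 libraries per group and 12 in all. Reads were reduced at random to the smallest library of each site, aligned with STAR 2.5.4b to GRCm38.p6 and summarised with Cuffdiff 1.3.0, per the submitters' processing notes and the study's methods. The study's methods also name another aligner without its role. The gene annotation is not given in the sources used here. The deposited FPKM values combine the libraries of a group after upper quartile normalization and carry an added 1. That was read from the values: the lowest is 1, and 5 decimals are kept by 83.9% of values from 10 to 11 but by 50.3% from 11 to 12, where FPKM passes 10. The table's other columns, and a shorter table, hold the authors' own comparison (fold changes, p-values and q-values) and were not used.

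The log2 ratio of FPKM plus 1 was computed for every listed gene of a site, with a pseudocount of 1, no further filter and a limit of 1.5-fold, in Python 3.11.15 with numpy 2.4.6, pandas 2.3.3 and matplotlib 3.10.9. The calculation was run on ratios set in advance without noise, which checks the arithmetic alone and not the method. The members, the lists of MMP, plasminogen, regulator, ADAM, matrix and cell type genes, and the rules were chosen with earlier results of these data known. All members are reported with their values, and some genes of the lists are not reported here. From other lists, genes past 1.5-fold were named, at most 4 by the largest ratio, with some others chosen for their role after their values were seen. Gene positions are those of GENCODE M21 (GRCm38). Other pseudocounts, scalings, filters and fold limits were tried.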

Additional observations from a re-analysis of the deposited data

How the results depend on the processing

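The values used are those of groups, not libraries, so results without each replicate could not be computed, no paired analysis was possible, and depth limits how small a level can be read by an amount that is unknown here. The 28 log2 ratios and differences between sites of the members were recomputed with a pseudocount of 0 or 5, centring on the median of all genes, equal upper quartiles, and FPKM of at least 1. That last filter removed no gene, since the higher group of every listed gene was above it. Of the 140 recomputed values, 139 stayed on their side of the 1.5-fold limit. The other was the difference between sites of MMP16, at -0.40 with a pseudocount of 5. The sign changed once, for TIMP2 above the lesion, at 0.00 after centring. The difference between sites for MMP12 ranged from -2.62 to -2.28. The counts of members moved with the limit alone: at a log2 limit of 0.32, 1 member was lower above the lesion, 1 was higher below it and 5 were lower below it. Over all genes, those called higher above the lesion went from 108 to 173 with a pseudocount of 0, 34 with one of 5, 570 at the log2 limit of 0.32 and 18 at a 2-fold limit, and those called lower there from 265 to 358, 116, 1017 and 77 in the same order. Below the lesion those called higher went from 143 to 250, 46, 995 and 20, and those called lower from 541 to 664, 292, 1424 and 161.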

Other observations

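Above the lesion, 0 of 8 endothelial, 0 of 7 mural, 0 of 8 astrocyte, 0 of 4 oligodendrocyte, 0 of 6 oligodendrocyte precursor and 0 of 9 neuron markers listed were past 1.5-fold. Below it, CDH5 was the 1 endothelial marker called lower, from 15.1 to 9.55 FPKM, and 0 of the markers listed for the other 5 types passed. The neuron list had a median log2 ratio of 0.09 above and 0.20 below, with 7 of 7 markers listed below higher in the group labelled synj1+/-. The median was 0.14 and -0.17 for the endothelial list, 0.20 and -0.16 for the mural list, -0.21 and -0.17 for the astrocyte list, -0.12 and 0.02 for the oligodendrocyte list, and -0.12 and -0.16 for the oligodendrocyte precursor list, above and below in turn.

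Schwann cell and neutrophil markers were sparse. Of 6 Schwann cell markers, 3 were listed above the lesion, with NCMAP higher, and 4 below, with EGR2 lower, from 41.4 to 16.8 FPKM. Of 6 neutrophil markers, 2 were listed above and 3 below, where S100A8 was lower, from 5.41 to 2.04 FPKM. S100A8 and S100A9 summed to under 4.2 FPKM in each group above the lesion, and the markers listed below summed to 20.1 FPKM in synj1+/+ and 13.0 in synj1+/- cord.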
